A study of Mus musculus with 12 samples.

Results

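The genes described here are 9 members of the hedgehog and parathyroid hormone-related protein (PTHrP) signalling pathways: the ligand gene Ihh, the receptor genes Ptch1 and Smo, the transcription factor genes Gli1, Gli2 and Gli3, the hedgehog inhibitor gene Hhip, the PTHrP gene Pthlh and its receptor gene Pth1r. They were chosen by symbol from the 23358 genes of the deposited count table, each matched 1 row, and all 9 were among the 16190 genes that passed the filter on low counts. RNA came from 3-day-old mouse skulls (postnatal day 3), where the frontal bone was collected with its coronal and frontonasal sutures and the nasal bone. The 4 groups of 3 samples were wild type on C57BL/6 (replicates 1 to 3), Fgfr2 C342Y/+ on C57BL/6 (replicates 4 to 6), wild type on BALB/c (replicates 13 to 15) and Fgfr2 C342Y/+ on BALB/c (replicates 16 to 18). The mutant mice carry 1 copy of the fibroblast growth factor receptor gene Fgfr2 with a cysteine to tyrosine change, and serve to model the early suture fusion of Crouzon syndrome. No transgene or Cre driver is named in the labels. The design compares the genotypes on each background and the backgrounds with each other.

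Hedgehog ligands bind the receptor Ptch1, which then stops holding back the membrane protein Smo, and Smo at the primary cilium turns the Gli proteins towards activation of target genes. Gli1, Ptch1 and Hhip are themselves target genes, so their transcripts are widely read as a measure of hedgehog response, while Gli3 acts largely as a repressor in its processed form. In growth plates Ihh from prehypertrophic chondrocytes and PTHrP regulate each other in a loop through Pth1r, Pth1r is also a major receptor of osteoblasts, and in the calvaria Gli1 marks suture stem cells.

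In the coordinates of the deposited table, counted from 1, Ihh lies at chr1:74945318-74951651 and Gli2 at chr1:118834061-119053619. Smo lies at chr6:29735497-29761366 and Pthlh at chr6:147252110-147264085. Hhip lies at chr8:79965851-80058008, Pth1r at chr9:110722085-110747145 and Gli1 at chr10:127329882-127341579. Gli3 lies at chr13:15463723-15730025 and Ptch1 at chr13:63511533-63565520. The submitters' processing notes name the build mm10. In the table Gli1 overlaps the end of Arhgap9 (chr10:127323727-127329943), which held 4.40 to 9.20 CPM (counts scaled by TMM to a common library total), and the strand setting of the counting is not given in the sources used here.

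The 250 bases before the RefSeq start (GRCm38.p6) are shown for Ihh, the ligand with the widest range between groups, and for Ptch1 and Hhip, both target genes, of which Hhip was called for genotype and Ptch1 was not. Windows were matched by symbol for 8 of the 9 members, all but Gli1. The consensus GACCACCCA, the motif bound by Gli proteins, was searched on both strands (TGGGTGGTC on the other) and was found, exactly or with at most 1 mismatch, in 0 of the 8 members' windows. Over all 32851 windows the exact motif was in 0.225% and the motif with at most 1 mismatch in 5.79%. Of the tested genes with a window, 0.239% and 7.68% had them. The search with 1 mismatch was added to the planned exact search. A match or its absence describes the letters of this window only. The capitals in the Hhip window mark the cAMP response element TGACGTCA, its own reverse complement, which begins 75 bases before the start. This motif was chosen after the letters were seen. It was in 1 of the 8 members, in 1.55% of all windows and in 2.93% of the windows of 11311 tested genes.
Ihh, chr1:74951673-74951922, minus strand: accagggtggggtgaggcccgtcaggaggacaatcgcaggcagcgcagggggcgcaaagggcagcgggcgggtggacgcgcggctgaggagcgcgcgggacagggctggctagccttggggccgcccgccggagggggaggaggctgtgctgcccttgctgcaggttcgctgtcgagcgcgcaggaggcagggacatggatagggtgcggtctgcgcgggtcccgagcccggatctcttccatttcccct
Ptch1, chr13:63565736-63565985, minus strand: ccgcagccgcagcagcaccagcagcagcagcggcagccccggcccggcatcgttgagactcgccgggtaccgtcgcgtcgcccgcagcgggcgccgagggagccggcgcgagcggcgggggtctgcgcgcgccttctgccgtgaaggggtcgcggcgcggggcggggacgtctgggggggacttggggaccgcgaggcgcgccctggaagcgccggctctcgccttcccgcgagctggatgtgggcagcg
Hhip, chr8:80058009-80058258, minus strand: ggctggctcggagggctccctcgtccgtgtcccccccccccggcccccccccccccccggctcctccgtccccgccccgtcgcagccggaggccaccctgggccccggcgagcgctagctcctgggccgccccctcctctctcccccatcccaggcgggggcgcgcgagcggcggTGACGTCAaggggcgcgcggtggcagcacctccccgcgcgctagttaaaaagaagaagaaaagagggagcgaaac

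Total gene counts ran from 27181658 to 46521546 per library. The bone markers were the leading ones: the summed level of 14 osteoblast and osteocyte genes was 114096 to 263452 CPM over the 12 libraries. The labels do not say whether the samples of a group came from separate animals, so p-values measure only the spread between these samples. Y-linked transcripts summed to 4846 to 6876 counts in all 3 C57BL/6 wild type libraries and in 1 of 3 libraries of each other group (replicates 6, 15 and 16), and to at most 60 counts in the others. All C57BL/6 libraries carry 1 flow cell identifier and all BALB/c libraries another, so strain and flow cell cannot be told apart. Fgfr2 itself was at 212, 252 and 283 CPM in C57BL/6 wild type and 337, 370 and 375 CPM in C57BL/6 mutant libraries, and these counts do not separate the alleles. In marker sums 3 libraries stood apart: C57BL/6 wild type 1 (epithelium at 575 CPM and the lowest osteoblast sum), C57BL/6 mutant 4 (epithelium at 110 CPM, against 3.83 and 5.39 in its group) and BALB/c mutant 16 (skeletal muscle at 457 CPM over 10 markers, and glia). C57BL/6 wild type 2 held 93.5 CPM of the muscle markers, against 15.5 and 10.5 in its group. In bulk tissue, fewer cells of a type and less RNA per cell cannot be told apart.

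Per kilobase of the gene length in the deposited table, Pth1r was the most abundant member in every group, followed by Smo and Gli1. In C57BL/6 wild type the mean levels were 78.0 ± 9.18 CPM per kilobase (SD, n = 3) for Pth1r, 36.6 ± 2.92 (SD, n = 3) for Smo and 23.5 ± 2.70 (SD, n = 3) for Gli1. Ptch1 came next at 17.96 ± 2.78 CPM per kilobase (SD, n = 3), and the 5 other members lay between 2.75 and 6.87. In that group the ranges of Gli2 and Ihh overlapped, as did those of Ihh and Gli3, and the other neighbours in the order did not overlap. Ihh was sixth in the order at 5.20 ± 1.31 CPM per kilobase (SD, n = 3) and was the lowest of the 9 in the other 3 groups, at means of 1.36 to 1.59. Ptch1 followed Gli1 in both C57BL/6 groups and in BALB/c mutants, but in BALB/c wild type it was at 5.44 ± 0.840 CPM per kilobase (SD, n = 3), below Gli2 at 6.00 ± 0.531 (SD, n = 3), with overlapping ranges.

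**Figure D1:**
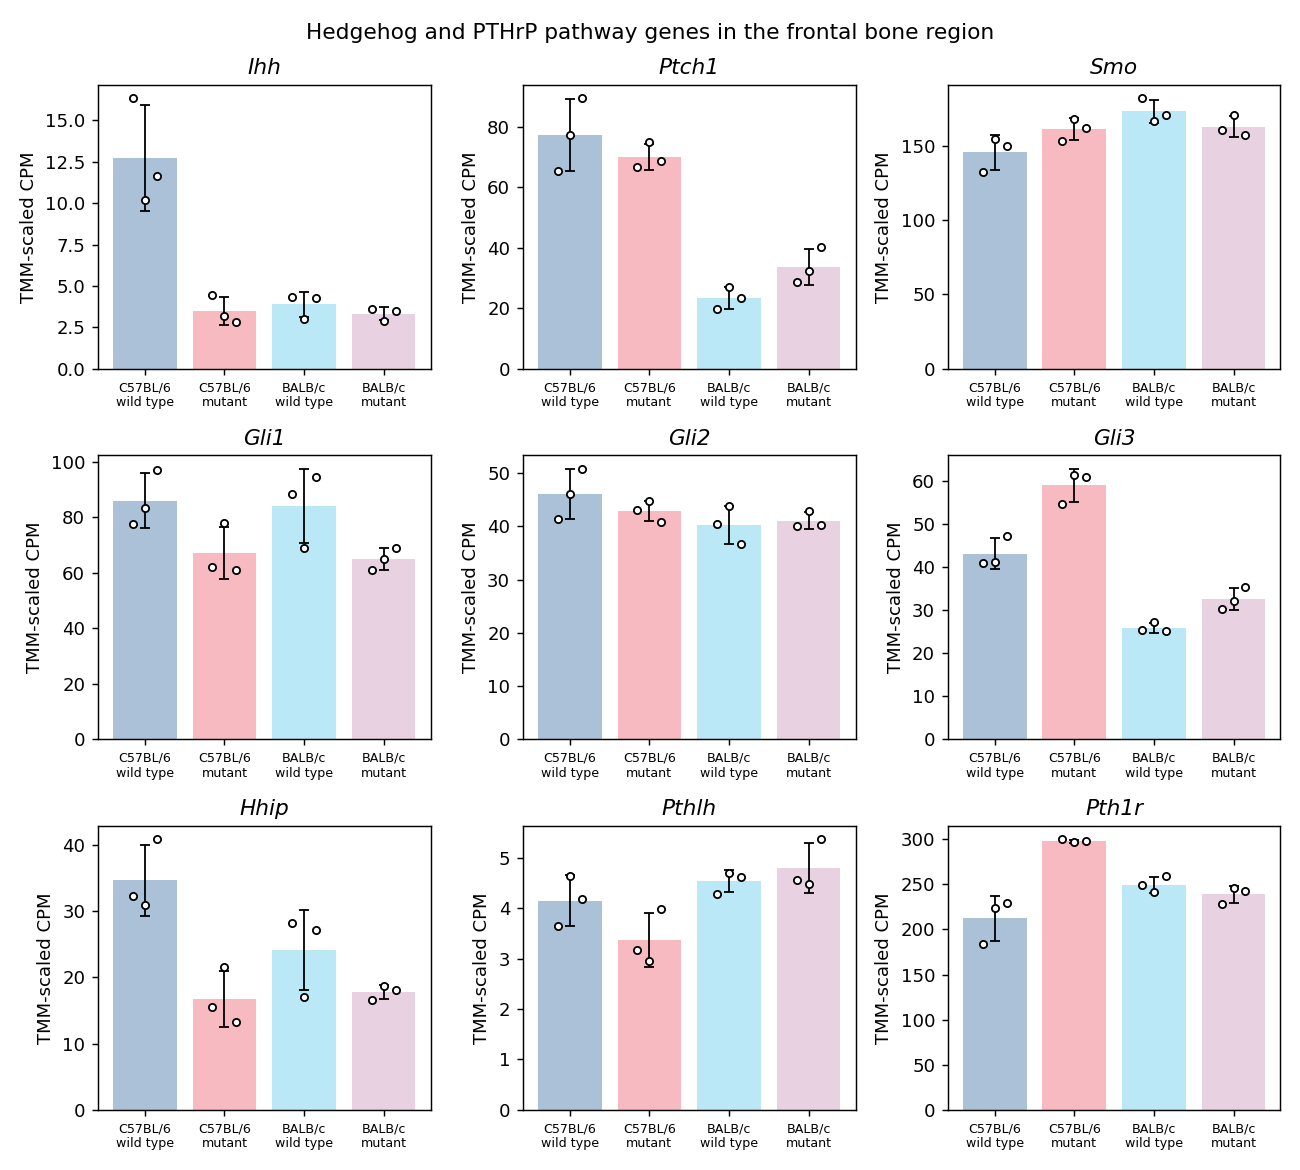
Level of each of the 9 genes in each of the 12 libraries (TMM-scaled CPM; each panel has its own axis), with 1 point per library, a bar at each group's mean and colour for the group. Ihh is at 10.2 to 16.3 CPM in C57BL/6 wild type and at 2.80 to 4.43 CPM in every other library, while Ptch1 separates the strains.

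Of the 9 members, 4 changed with the mutation on C57BL/6: Ihh and Hhip fell, and Gli3 and Pth1r rose. The threshold for a call was 0.05 for the adjusted p of edgeR's quasi-likelihood test with Benjamini-Hochberg adjustment over all tested genes, and 23.9% of all tested genes were called in this comparison. On BALB/c 0 of the 9 were called by edgeR, against 0.136% of all genes. At an unadjusted p under 0.05, 4 of the 9 passed there, namely Ptch1, Gli1, Gli3 and Hhip, against 11.7% of all genes. DESeq2 called 2 of them (Ptch1 and Gli3, both higher in mutants), against 2.32% of the genes to which it gave an adjusted p, and limma-voom called 0, against 0.272%. The test of the difference between the strains' genotype effects called 2 members, Ihh and Pth1r, against 10% of all genes. Averaged over strains, 5 members were called against 7.99% of all genes: Gli3 and Pth1r were higher and Ihh, Gli1 and Hhip lower in mutants. The median log2 fold change of the 9 was -0.14 on C57BL/6 and -0.06 on BALB/c, beside 0.00 for all tested genes in both.

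**Figure D2:**
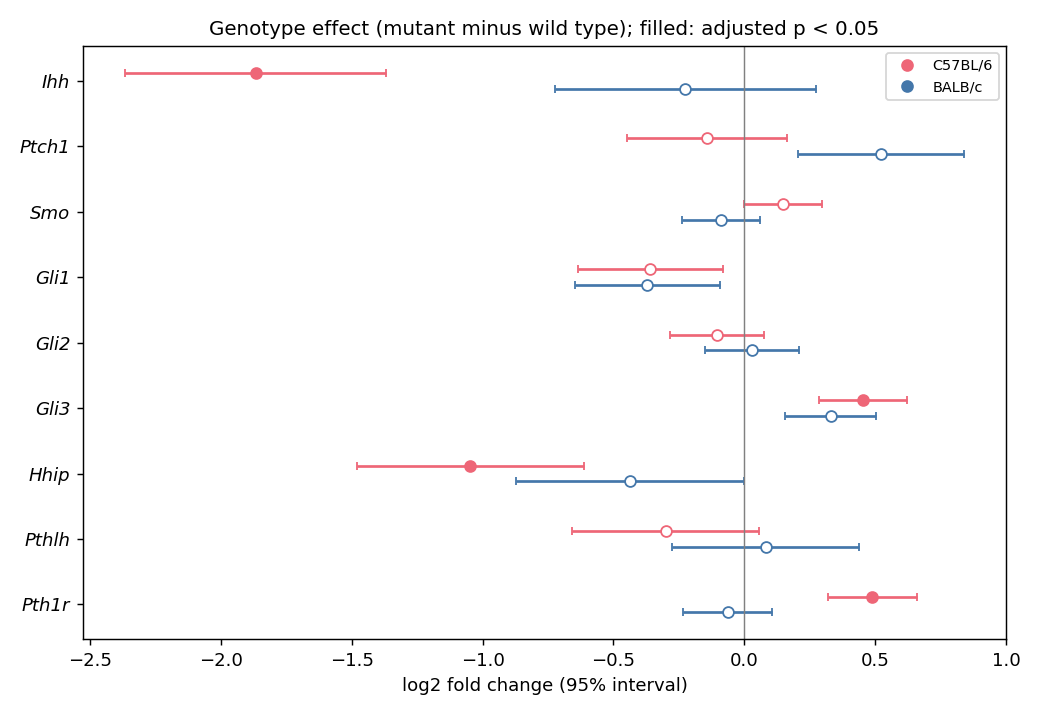
Genotype effect (mutant minus wild type, log2 fold change with its 95% interval) of each member on C57BL/6 and on BALB/c, where filled points passed an adjusted p of 0.05. Ihh at -1.87 on C57BL/6 is the farthest from 0, and no BALB/c point is filled.

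Ihh, the hedgehog ligand of cartilage and bone, fell in C57BL/6 mutants. It was at 16.3, 10.2 and 11.6 CPM in C57BL/6 wild type libraries and at 4.43, 3.20 and 2.80 CPM in C57BL/6 mutant libraries. In BALB/c wild type libraries it was at 4.36, 3.03 and 4.27 CPM, and in BALB/c mutant libraries at 3.60, 2.88 and 3.49 CPM. Each C57BL/6 wild type library was above each of the other 9, whose ranges overlapped across the 3 groups. The genotype effect on C57BL/6 was a 3.65-fold decrease (log2 fold change -1.87, SE 0.23, edgeR adjusted p = 0.000463, lower in 3 of 3 mutant libraries than in any wild type library). On BALB/c the log2 fold change was -0.23 with a 95% interval of -0.72 to 0.27 (edgeR adjusted p = 0.771). The difference between these effects was 1.64 (SE 0.32, edgeR adjusted p = 0.0120). Both calls held under every alternative run, including each left-out library, with the C57BL/6 effect between -2.08 and -1.63 over the left-out fits. With Y-linked expression as a covariate the C57BL/6 effect was -1.85 (edgeR adjusted p = 0.00229). Counts of Ihh were 98 to 628 per library.

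Col10a1, Col2a1 and epithelial transcripts were also higher in C57BL/6 wild type than in C57BL/6 mutant libraries, and their part in the Ihh result was not tested. Col10a1, the collagen of hypertrophic cartilage, was at 378, 369 and 281 CPM in C57BL/6 wild type and at 92.3, 10.5 and 6.30 CPM in C57BL/6 mutant libraries. It was at 4.98 to 9.60 CPM in the 6 BALB/c libraries. Its C57BL/6 genotype effect was a log2 fold change of -3.23 (SE 0.75, edgeR adjusted p = 0.0108). The size rests on C57BL/6 mutant 4: without it the effect was -5.34 (edgeR adjusted p = 8.34e-07), and with only the groups compared the call was lost (adjusted p = 0.0811). C57BL/6 mutant 4 held 92.3 CPM of Col10a1 and 4.43 CPM of Ihh, both the highest of its group. The highest BALB/c library held 4.36 CPM of Ihh. Ihh per 100 CPM of Col10a1 was 2.76 to 4.32 in C57BL/6 wild type, 4.80 in C57BL/6 mutant 4 and 30.4 to 72.3 in the other 8 libraries. In those 8 libraries Col10a1 was at 4.98 to 10.5 CPM. The list of 8 hypertrophic cartilage genes as a whole, several of which osteoblasts also express, went the other way from Col10a1. Of these 8 genes, 4 rose and 1 fell in C57BL/6 mutants, with a median log2 fold change of 0.33, and their summed level was 3187 to 4145 CPM in C57BL/6 wild type and 4253 to 4855 CPM in C57BL/6 mutants.

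Of 17 tested cartilage genes, 6 fell and 0 rose in C57BL/6 mutants, with a median log2 fold change of -2.29. Without C57BL/6 mutant 4, 14 fell, limma-voom gave 13, and 4 fell without C57BL/6 wild type 1 or without C57BL/6 mutant 5 or 6. Their summed level was 9253 to 11253 CPM in C57BL/6 wild type, 3852 to 6967 in C57BL/6 mutants, 4056 to 5287 in BALB/c wild type and 4727 to 9943 in BALB/c mutants, where the highest, BALB/c mutant 17, was above C57BL/6 wild type 2 and 3. Sox9, the master regulator of chondrocytes, fell by 1.09 on the log2 scale on C57BL/6 (SE 0.25, edgeR adjusted p = 0.0103). Col2a1, the main cartilage collagen, was at 4932, 3257 and 3525 CPM in C57BL/6 wild type and at 1864, 83.6 and 112 CPM in C57BL/6 mutant libraries. BALB/c mutant 17 reached 3805 CPM of Col2a1, in the range of C57BL/6 wild type, with 2.88 CPM of Ihh and 7.92 CPM of Col10a1. The 10 epithelial markers summed to 236 to 575 CPM in C57BL/6 wild type, to 110, 3.83 and 5.39 CPM in C57BL/6 mutants and to 2.96 to 6.24 CPM in the BALB/c libraries, where up to 2 of the 10 were at 0 in every library of a group. Of these 10 markers, 6 fell and 0 rose in C57BL/6 mutants. Without C57BL/6 mutant 4 all 10 fell, without C57BL/6 wild type 2 or C57BL/6 mutant 5 or 6 the count was 3, 2 and 1, and it was 2 with DESeq2 and 0 of 9 tested with only the groups compared. Calls over all genes also moved over left-out fits, and they fell from 3867 to 1458 with only the groups compared.

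**Figure D3:**
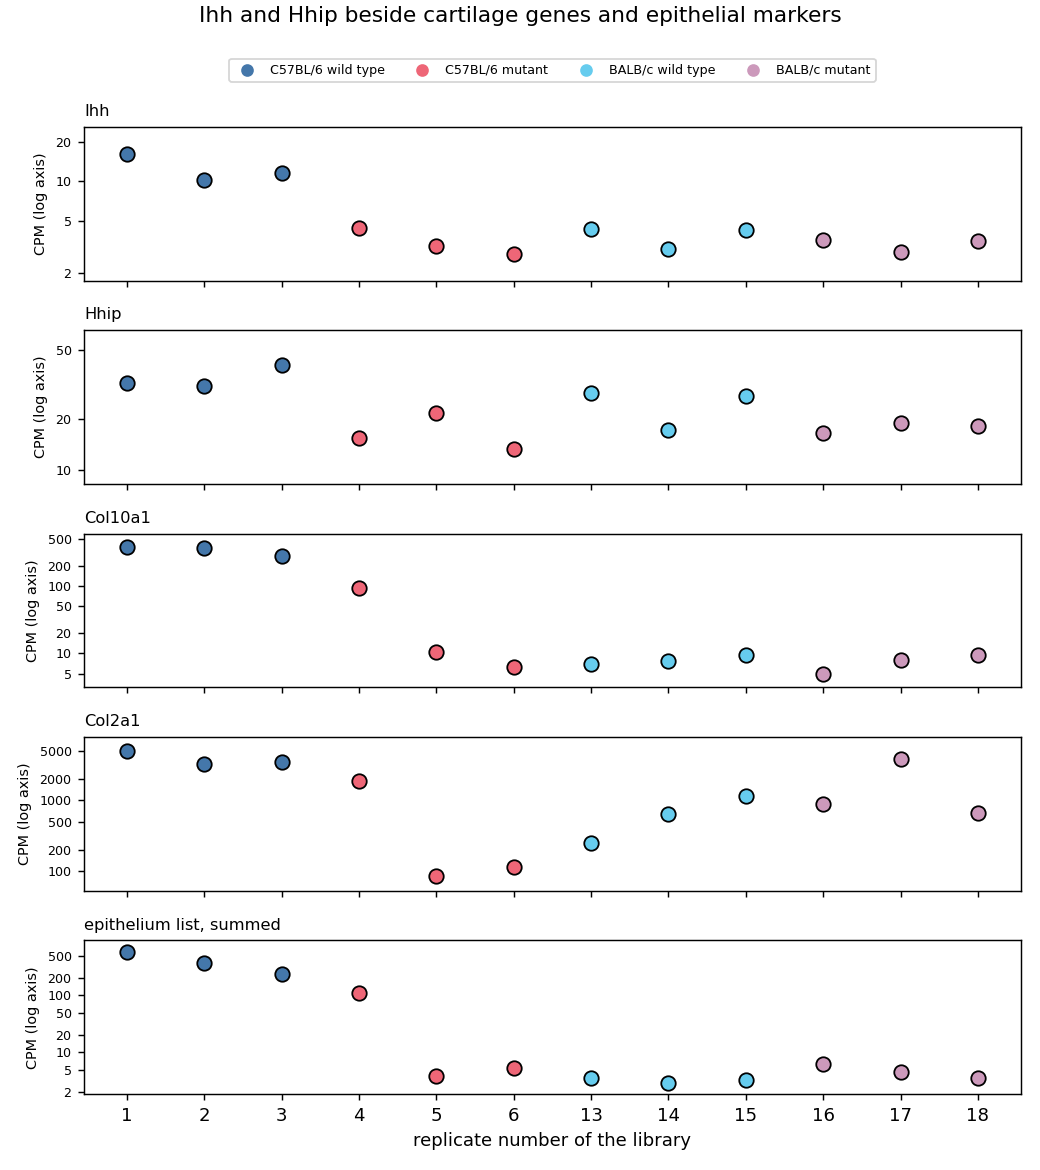
Levels of Ihh, Hhip, Col10a1 and Col2a1 and the summed epithelial markers in each of the 12 libraries (TMM-scaled CPM on log axes; x axis, replicate number; colour, group). The 3 C57BL/6 wild type libraries lead in Ihh, Hhip, Col10a1 and the epithelial sum, C57BL/6 mutant 4 lies between them and the rest for Col10a1 and the epithelial sum, and BALB/c mutant 17 has high Col2a1 alone.

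Ptch1, the hedgehog receptor and a target gene, was not called for genotype in either strain by edgeR. It was at 65.4, 77.1 and 89.4 CPM in C57BL/6 wild type and at 66.8, 74.8 and 68.6 CPM in C57BL/6 mutant libraries, which overlapped. In BALB/c wild type it was at 19.8, 26.99 and 23.5 CPM, and in BALB/c mutants at 28.7, 32.2 and 40.1 CPM. The BALB/c genotypes did not overlap, and all 6 BALB/c libraries lay below all 6 C57BL/6 libraries. The C57BL/6 genotype effect was -0.14 on the log2 scale with a 95% interval of -0.45 to 0.16 (edgeR adjusted p = 0.491). On BALB/c it was 0.52 (SE 0.15, interval 0.20 to 0.84), which missed the threshold at an edgeR adjusted p of 0.187. It passed with DESeq2 (adjusted p = 0.0229) and in edgeR without the 3 libraries that stood apart (0.63, adjusted p = 0.0386). The difference between the 2 genotype effects, 0.66 (SE 0.20), likewise missed it by edgeR (adjusted p = 0.0577) and passed by DESeq2 (adjusted p = 0.0133). In edgeR that difference also passed with total counts (0.88, adjusted p = 0.0139), without C57BL/6 wild type 1 (0.75, adjusted p = 0.0460) and without the 3 libraries (0.83, adjusted p = 0.00880).

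Smo, the membrane protein that carries the signal past Ptch1, varied little. It was at 132, 154 and 150 CPM in C57BL/6 wild type, 153, 168 and 162 CPM in C57BL/6 mutants, 182, 167 and 171 CPM in BALB/c wild type and 160, 171 and 157 CPM in BALB/c mutants. Both genotype comparisons overlapped. The genotype effect was 0.15 on C57BL/6 (95% interval -0.00 to 0.30, edgeR adjusted p = 0.134) and -0.09 on BALB/c (95% interval -0.24 to 0.06, edgeR adjusted p = 0.683), and the first turned to -0.04 when libraries were scaled by total counts.

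Hhip, a membrane protein that binds hedgehog ligands and limits their action, fell in C57BL/6 mutants. It was at 32.3, 31.0 and 40.8 CPM in C57BL/6 wild type and at 15.5, 21.5 and 13.3 CPM in C57BL/6 mutant libraries, with no overlap. BALB/c wild type libraries held 28.2, 17.1 and 27.1 CPM and BALB/c mutant libraries 16.5, 18.7 and 18.1 CPM, which overlapped because of BALB/c wild type 14. The C57BL/6 decrease was 2.07-fold (log2 fold change -1.05, SE 0.20, edgeR adjusted p = 0.00450), lower in 3 of 3 mutant libraries. It passed in each of the 8 alternatives and in each fit that left out 1 library of these groups. The BALB/c effect was -0.44 with a 95% interval of -0.87 to -0.00 (edgeR adjusted p = 0.425), and the difference between the strains' effects, 0.61 (SE 0.28), did not pass (edgeR adjusted p = 0.171). The cartilage and epithelial levels given for Ihh move with the C57BL/6 result for Hhip as well, and their part in it was not tested.

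Gli1, the target gene and activator that marks suture stem cells, fell in mutants when averaged over the strains, with near-equal estimates in each. It was at 77.6, 83.5 and 96.9 CPM in C57BL/6 wild type and 62.0, 77.9 and 61.2 CPM in C57BL/6 mutant libraries. On BALB/c it was at 88.4, 69.0 and 94.7 CPM in wild type and 61.0, 64.8 and 69.1 CPM in mutants. In each strain the highest mutant library overlapped the lowest wild type library by less than 1 CPM. The log2 fold change was -0.36 (SE 0.13, edgeR adjusted p = 0.0577) on C57BL/6 and -0.37 (SE 0.13, edgeR adjusted p = 0.279) on BALB/c, so neither passed alone. Averaged over strains it was -0.36 (SE 0.09, edgeR adjusted p = 0.0307). The difference between the strains' effects was -0.01 with a 95% interval of -0.40 to 0.38 (edgeR adjusted p = 0.980). Cell type markers were also called in the averaged comparison, against 7.99% of all genes. All 8 osteoclast markers and 4 of 14 osteoblast and osteocyte genes were higher in mutants, and 5 of 7 erythroid markers were lower. Of 10 suture mesenchyme genes, a list that holds Gli1, 2 were higher and 2 lower. The part of these cells in the Gli1 result was not tested.

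The averaged Gli1 call was a narrow one. It was lost in each of 7 fits that left out a library (C57BL/6 wild type 3, C57BL/6 mutant 6, BALB/c wild type 13 or 15, or BALB/c mutant 16, 17 or 18), with adjusted p-values of 0.0572 to 0.0791, and with the Y-linked covariate (adjusted p = 0.0606), and it held in the 5 other left-out fits. The C57BL/6 effect passed with DESeq2 (adjusted p = 0.0247) and limma-voom (adjusted p = 0.0450), and in edgeR with total-count scaling (-0.55, adjusted p = 0.00659). It also passed in edgeR without C57BL/6 mutant 5 (-0.48, adjusted p = 0.0293) or BALB/c wild type 14 (-0.36, adjusted p = 0.0337).

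Gli1 and Hhip moved together across libraries while Ptch1 did not join them. Over the 12 libraries the log2 CPM of Gli1 and Hhip had a Pearson correlation of 0.901, and of 0.932 after group means were removed. The same measures for Gli1 and Ptch1 were 0.01 and 0.24. Ptch1 instead tracked Gli3, at 0.902 over all libraries and 0.814 with group means removed. These are descriptions over 12 libraries that share tissue, strain and scaling. Hhip per 100 CPM of Gli1 was 37.1 to 42.2 in C57BL/6 wild type, 21.8 to 27.7 in C57BL/6 mutants, 24.8 to 31.9 in BALB/c wild type and 26.2 to 28.9 in BALB/c mutants. Each C57BL/6 wild type library thus held more Hhip for its Gli1 than each of the other 9 libraries, and the part of tissue composition in this ratio was not tested. Ptch1 per 100 CPM of Gli1 was 84.3 to 112 in the C57BL/6 libraries, 22.3 to 39.1 in BALB/c wild type and 46.95 to 58.05 in BALB/c mutants.

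**Figure D4:**
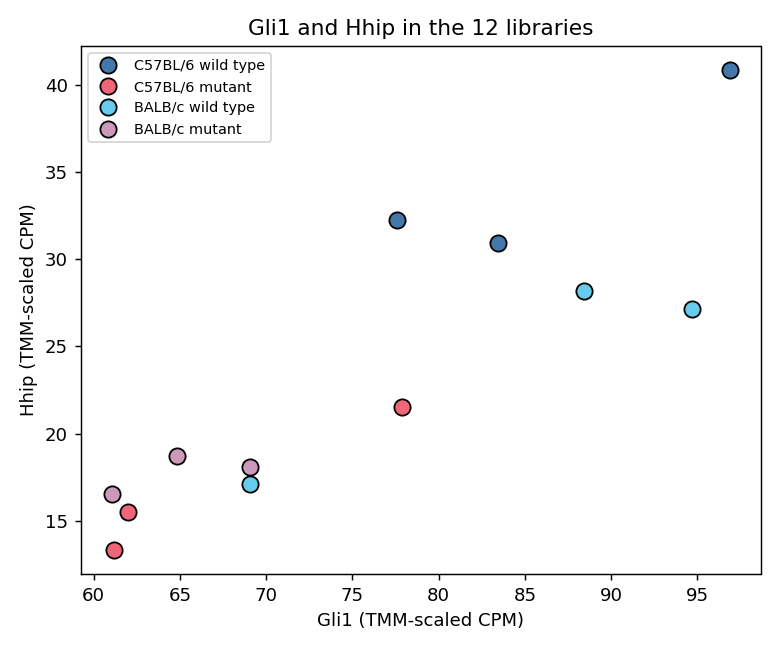
Hhip against Gli1 (TMM-scaled CPM) in the 12 libraries, 1 point per library coloured by group. Libraries with more Gli1 mostly hold more Hhip, and the 3 C57BL/6 wild type points lie above the others at 31.0 to 40.8 CPM of Hhip.

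Gli2, the main activator among the Gli factors, was not called for genotype in either strain. It was at 41.4, 46.1 and 50.8 CPM in C57BL/6 wild type, 43.1, 44.7 and 40.8 CPM in C57BL/6 mutants, 40.3, 43.8 and 36.7 CPM in BALB/c wild type and 40.0, 42.9 and 40.3 CPM in BALB/c mutants. All 4 groups overlapped. The 95% intervals of the genotype effect were -0.28 to 0.07 on C57BL/6 and -0.15 to 0.21 on BALB/c (edgeR adjusted p = 0.376 and 0.948). With total-count scaling, which shifted the median of all genes by -0.20 on C57BL/6 and by 0.23 in the difference between the strains' effects, the C57BL/6 effect of Gli2 was -0.29 (edgeR adjusted p = 0.0136) and the difference 0.36 (edgeR adjusted p = 0.0458).

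Gli3, whose processed form represses target genes, rose in C57BL/6 mutants. It was at 40.8, 41.1 and 47.2 CPM in C57BL/6 wild type and at 54.6, 61.5 and 60.8 CPM in C57BL/6 mutant libraries. In BALB/c wild type it was at 25.5, 27.2 and 25.1 CPM and in BALB/c mutants at 30.3, 32.1 and 35.3 CPM. The genotypes did not overlap in either strain, and each BALB/c library was below each C57BL/6 library. The C57BL/6 increase was 1.37-fold (log2 fold change 0.45, SE 0.08, edgeR adjusted p = 0.00260, higher in 3 of 3 mutant libraries). With total-count scaling it was 0.26 (edgeR adjusted p = 0.0203). On BALB/c the log2 fold change was 0.33 (SE 0.08, interval 0.16 to 0.50), which missed the threshold by edgeR (adjusted p = 0.131). It passed by DESeq2 (adjusted p = 0.0223) and in edgeR without the 3 libraries that stood apart (0.38, adjusted p = 0.0471). Markers of several cell types moved with genotype on C57BL/6 beside Gli3 and Pth1r. All 8 osteoclast markers rose, with a median log2 fold change of 0.96, and summed to 3492 to 4261 CPM in C57BL/6 wild type, 7345 to 8195 CPM in C57BL/6 mutants and 4206 to 5000 CPM in the BALB/c libraries. Of 10 suture mesenchyme genes 3 rose and 2 fell, and they summed to 2424 to 3455 CPM in C57BL/6 wild type and 3616 to 3908 CPM in C57BL/6 mutants. This list holds Gli1 and shares a gene with the osteoclast list, whose rise therefore enters the counts and sums of both. Of 7 erythroid markers 6 fell and 0 rose, and they summed to 205 to 273 CPM in C57BL/6 wild type and 54.2 to 83.8 CPM in C57BL/6 mutants. Their part in the results for Gli3 and Pth1r, and that of the osteoblast genes given for Pth1r, was not tested.

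The difference between the strains' Gli3 effects was -0.12 with a 95% interval of -0.37 to 0.12 (edgeR adjusted p = 0.492). Averaged over strains Gli3 was 0.39 higher in mutants on the log2 scale (SE 0.06, edgeR adjusted p = 0.00295), a call kept in all 7 alternatives and all 12 left-out fits. Gli3 per 100 CPM of Gli2 was 89.2 to 98.6 in C57BL/6 wild type and 127 to 149 in C57BL/6 mutants. In BALB/c it was 62.1 to 68.4 in wild type and 74.9 to 87.6 in mutants, so mutant libraries were above wild type libraries in both strains.

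Pthlh, which encodes PTHrP, was the scarcest transcript per library beside Ihh, with 114 to 218 counts. It was at 3.64, 4.64 and 4.18 CPM in C57BL/6 wild type and at 3.16, 2.96 and 3.99 CPM in C57BL/6 mutant libraries. BALB/c wild type libraries held 4.28, 4.69 and 4.63 CPM and BALB/c mutant libraries 4.56, 4.48 and 5.36 CPM. Genotypes overlapped in both strains. The genotype effect was -0.30 on C57BL/6 (95% interval -0.66 to 0.06, edgeR adjusted p = 0.196) and 0.08 on BALB/c (95% interval -0.27 to 0.44, edgeR adjusted p = 0.909). With total-count scaling the C57BL/6 effect was -0.49 (edgeR adjusted p = 0.0433).

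Pth1r, the receptor for PTHrP and parathyroid hormone, rose in C57BL/6 mutants and not detectably in BALB/c mutants. It was at 184, 224 and 230 CPM in C57BL/6 wild type and at 299.8, 296 and 298 CPM in C57BL/6 mutant libraries. In BALB/c wild type it was at 249, 241 and 259 CPM and in BALB/c mutants at 228, 246 and 243 CPM. The C57BL/6 mutant libraries were above all 9 others, and the BALB/c genotypes overlapped. The C57BL/6 increase was 1.40-fold (log2 fold change 0.49, SE 0.08, edgeR adjusted p = 0.00185, higher in 3 of 3 mutant libraries). With total-count scaling it was 0.30 (edgeR adjusted p = 0.00435). On BALB/c the log2 fold change was -0.06 with a 95% interval of -0.23 to 0.11 (edgeR adjusted p = 0.823). The difference between the 2 effects was -0.55 (SE 0.11, edgeR adjusted p = 0.0132) and passed in all 7 alternatives and all 12 left-out fits, at -0.33 with total counts (edgeR adjusted p = 0.0252).

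Averaged over strains the Pth1r effect was 0.21 (SE 0.06, edgeR adjusted p = 0.0371), a call lost in 7 of the 12 left-out fits (C57BL/6 mutant 5 or 6, BALB/c wild type 13, 14 or 15, or BALB/c mutant 17 or 18) at adjusted p-values of 0.0615 to 0.0937. It was also lost without the filter on low counts, with total-count scaling and with the Y-linked covariate (adjusted p = 0.0510, 0.0623 and 0.0731). Osteoblast genes moved the same way on C57BL/6. Of 14 osteoblast and osteocyte genes, 12 rose and 0 fell in C57BL/6 mutants, with a median log2 fold change of 0.60, and 0 were called on BALB/c. Their summed level was 114096, 192496 and 197307 CPM in C57BL/6 wild type, 220069 to 263452 CPM in C57BL/6 mutants and 185682 to 211360 CPM in the BALB/c libraries. With only the groups compared, 4 of the 14 rose, in a setting where calls over all genes fell from 3867 to 1458.

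Ptch1 and Gli3 were called lower in BALB/c in both strain comparisons. In wild type, 6 of the 9 members were called (48.5% of all tested genes were): Ihh, Ptch1, Gli3 and Hhip were lower and Smo and Pth1r higher in BALB/c. In mutants 4 were called (36.9% of all tested genes): Ptch1, Gli3 and Pth1r were lower and Pthlh higher in BALB/c. The 2 strain comparisons share no library, but they come from the same fit and share each gene's estimate of spread. Each strain's libraries also share a flow cell.

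Markers of other tissue differed between the strains as well. In BALB/c wild type all 10 epithelial markers were lower than in C57BL/6 wild type, with a median log2 fold change of -7.73 and sums of 2.96 to 3.61 CPM against 236 to 575 CPM. All 8 olfactory neuron markers were lower there too, with a median of -7.03 and sums of 80.9 to 85.4 CPM against 236 to 366 CPM. Of the 17 cartilage genes 7 were lower and 1 was higher, with a median of -2.35, and the number lower was 4 without BALB/c wild type 13, 12 without C57BL/6 mutant 5 and 13 without C57BL/6 mutant 4, both of which enter only through the shared spread. Between the mutants all 7 erythroid and all 8 neutrophil markers were higher in BALB/c. Of 10 skeletal muscle markers 9 were higher there, but the sum was 457 CPM in BALB/c mutant 16 against 45.5 and 21.4 CPM in its group and 10.4 to 15.4 CPM in C57BL/6 mutants. The count of muscle markers was 2 without that library, 5 without C57BL/6 mutant 4 or 6, 3 without C57BL/6 mutant 5 and 1 by limma-voom. Of 8 olfactory neuron markers 6 were lower in BALB/c mutants, and 1 was without C57BL/6 mutant 4, without any 1 BALB/c mutant library or by limma-voom. The part of these tissues in the strain results was not tested.

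Ptch1 was 3.29-fold lower in BALB/c wild type (log2 fold change -1.72, SE 0.15, edgeR adjusted p = 7.78e-06) and 2.08-fold lower in BALB/c mutants (-1.06, SE 0.14, edgeR adjusted p = 0.000168). Gli3 was 1.66-fold lower in wild type (-0.73, SE 0.08, edgeR adjusted p = 3.50e-05) and 1.81-fold lower in mutants (-0.86, SE 0.08, edgeR adjusted p = 1.09e-05). These were the 2 members with the same called direction in both genotypes. Ihh was 3.27-fold lower in BALB/c wild type (-1.71, SE 0.23, edgeR adjusted p = 0.000141), while between the mutants its effect was -0.07 with a 95% interval of -0.56 to 0.43. Pth1r was 0.23 higher in BALB/c wild type (edgeR adjusted p = 0.0272) and 0.32 lower in BALB/c mutants on the log2 scale (edgeR adjusted p = 0.00752), the second at -0.20 with total counts (edgeR adjusted p = 0.0149).

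Some strain calls were lost when 1 library was left out. Hhip in wild type (-0.53, SE 0.20, edgeR adjusted p = 0.0446) missed the threshold without C57BL/6 wild type 1 or 3, BALB/c wild type 14 or 15, or BALB/c mutant 16, 17 or 18, at adjusted p-values of 0.0518 to 0.157, with an effect of -0.33 without BALB/c wild type 14, and with the Y-linked covariate (adjusted p = 0.0685). Pth1r in wild type was lost without C57BL/6 wild type 1 (0.14, adjusted p = 0.0657) or BALB/c wild type 13 or 15 (adjusted p = 0.0624 and 0.0812), and in 4 alternatives (total counts, the Y-linked covariate, only the groups compared, and the 3 libraries left out) at adjusted p-values of 0.0715 to 0.0842. Pthlh in mutants (0.51, SE 0.16, edgeR adjusted p = 0.0289) was lost without C57BL/6 mutant 4 or 5 or BALB/c mutant 18, at adjusted p-values of 0.0739 to 0.106, and with only the groups compared (adjusted p = 0.0531) or the 3 libraries left out (adjusted p = 0.0731). Gli2 in wild type (-0.19, edgeR adjusted p = 0.0690) instead gained a call without C57BL/6 wild type 1 or BALB/c wild type 14, and with total counts, the Y-linked covariate or the 3 libraries left out, at -0.30 to -0.26 and adjusted p-values of 0.00580 to 0.0336. Smo in wild type was 0.25 higher in BALB/c (SE 0.07, edgeR adjusted p = 0.0101), and 0.14 higher with total counts (edgeR adjusted p = 0.0393).

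**Figure D5:**
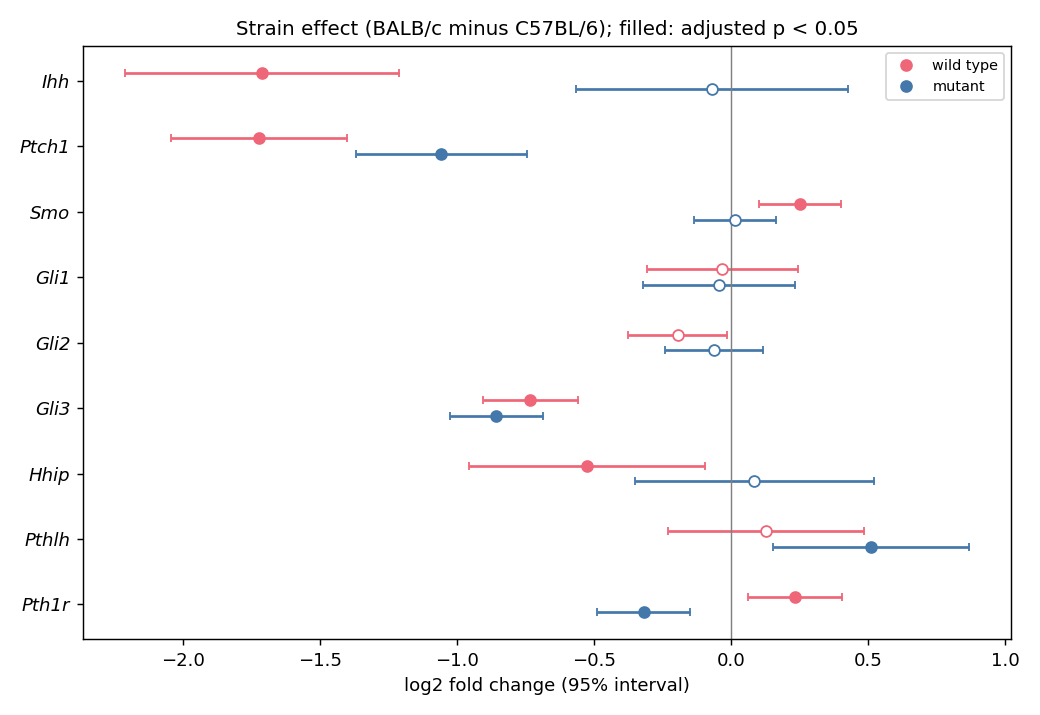
Strain effect (BALB/c minus C57BL/6, log2 fold change with its 95% interval) of each member in wild type and in mutant samples, where filled points passed an adjusted p of 0.05. Ptch1 and Gli3 are below 0 in both genotypes, Ihh in wild type only by this test, and Pth1r lies on opposite sides of 0.

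The other genes of the 2 pathways were counted by role. On C57BL/6, 16 of 51 tested were called (31.4%, against 23.9% of all tested genes), of which 6 (Scube2, Cdon, Stk36, Ift88, Ccnd1 and Mef2c) passed in each of the 6 fits that left out a library of these groups, the 10 others were lost without C57BL/6 mutant 6, and 6 of the 16 were lost without C57BL/6 mutant 5. The 8 that rose and 8 that fell became 2 and 12 with total-count scaling, under which 6 of the 16 calls were lost, all of genes that rose. With only the groups compared 11 of the 16 were lost, among them Stk36 (adjusted p = 0.0600), which leaves Scube2, Cdon, Ift88, Ccnd1 and Mef2c as the 5 that passed in each alternative and each of those 6 fits. Over all genes, calls also fell from 3867 to 1458 with only the groups compared, and they moved over left-out fits too. Whether these losses exceed those of other genes was not tested. Of 6 tested genes for ligands and their release, 2 rose (Hhat and Disp1) and 2 fell (Scube2 and Scube3) in C57BL/6 mutants. Scube2, which helps hedgehog leave the cell, fell by 0.80 on the log2 scale (SE 0.17, edgeR adjusted p = 0.00721), and Disp1, which exports it, rose by 0.44 (SE 0.11, edgeR adjusted p = 0.0159), and by 0.26 with total counts (edgeR adjusted p = 0.0418). Hhat was lost with total counts (0.17, edgeR adjusted p = 0.312). Shh, the ligand of many other tissues, reached at most 4 counts in a library and was not tested. Dhh, the ligand of Schwann cells, was at 7.97 CPM in BALB/c mutant 16 and at 0.603 to 1.56 CPM in the other 11 libraries. In the same library 7 Schwann cell and glia markers summed to 568 CPM, against 22.3 to 107 CPM elsewhere.

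Of 6 tested receptors and co-receptors, 1 fell and 0 rose in C57BL/6 mutants: Cdon, which binds hedgehog beside Ptch1, fell by 0.51 (SE 0.10, edgeR adjusted p = 0.00521). Gas1, another co-receptor, showed no called genotype effect and was higher in BALB/c by 0.55 in wild type and 0.59 in mutants (edgeR adjusted p = 0.000193 and 0.000139). Of 16 transducers and cilium transport genes, 3 rose (Evc2, Spop and Arl13b) and 3 fell (Stk36, Ift88 and Kif3a) in C57BL/6 mutants. With total counts none of these 3 rises passed in edgeR, with Evc2 at 0.09 (adjusted p = 0.304), Spop at 0.02 (adjusted p = 0.759) and Arl13b at 0.10 (adjusted p = 0.500). Ift88, a carrier of cargo in the cilium, was at 19.1, 15.3 and 14.4 CPM in C57BL/6 wild type and at 11.9, 9.46 and 10.5 CPM in C57BL/6 mutant libraries (log2 fold change -0.61, SE 0.12, edgeR adjusted p = 0.00442). The 8 matched markers of ciliated epithelium, of which 7 were tested and 3 fell, summed to 37.2 to 43.2 CPM in the first and 20.3 to 23.7 CPM in the second group, and their part in this was not tested. Sufu, which holds Gli proteins in the cytoplasm, was at 19.2 to 26.7 CPM in all libraries and was not called in any comparison.

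Of 8 tested hedgehog target genes, 1 fell and 0 rose in C57BL/6 mutants. This was Ccnd1, the cell cycle gene cyclin D1, at 127, 119 and 127 CPM in wild type and 75.5, 77.4 and 52.6 CPM in mutant libraries. The groups were well apart (log2 fold change -0.86, SE 0.12, edgeR adjusted p = 0.00103). On BALB/c it was at 99.4, 87.9 and 108 CPM in wild type and 80.6, 75.8 and 80.9 CPM in mutants, again without overlap, and it was not called there. Averaged over strains it was 0.59 lower in mutants on the log2 scale (SE 0.09, edgeR adjusted p = 0.00332), a call kept in all 7 alternatives and all 12 left-out fits.

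Of 17 tested genes of PTH and PTHrP signalling, 3 rose (Hdac5, Sik3 and Mef2c) and 1 fell (Arrb2) in C57BL/6 mutants. With total counts Hdac5 was at 0.05 (edgeR adjusted p = 0.606) and Sik3 at 0.02 (adjusted p = 0.841), and both calls were lost. Mef2c, a transcription factor held in check by class II histone deacetylases, was at 163, 190 and 193 CPM in C57BL/6 wild type and 230, 282 and 277 CPM in C57BL/6 mutants (log2 fold change 0.53, SE 0.10, edgeR adjusted p = 0.00509, and 0.34 with total counts, adjusted p = 0.0117). Pth had 0 counts in all 12 libraries. On BALB/c 0 genes of these 5 lists were called. Median log2 fold changes on C57BL/6 were 0.05, -0.20, 0.03, 0.05 and 0.08 for ligands and release, receptors, transducers, targets and PTH signalling.

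The genes whose log2 CPM followed a member most closely over the 12 libraries were taken from 12828 genes with a mean of at least 1 CPM. For Ihh they were Sipa1l1, Gpm6a, Rragb, Zfhx2 and Slc1a4, at Pearson correlations of 0.967 to 0.974. With group means removed these 5 correlations were 0.612 to 0.891. For Gli1 they were Ankrd29 (0.909), Hhip (0.901), Slmo1, Nudt1 and Ube2n, at 0.703 to 0.932 with group means removed. For Pth1r they were Ecm1 (0.988), Fxyd5, St6galnac4, Capg and Ptpn22, at 0.815 to 0.934 with group means removed, the highest being Ecm1, an extracellular matrix gene. For Pthlh they were Rps19-ps3 (0.911), Alkbh7, Cd69, Ptgdr and Cntfr, at 0.868 and above, at 0.607 to 0.809 with group means removed and at 0.628 to 0.856 without the 2 libraries farthest from the median of Pthlh. The libraries share depth, strain and tissue composition, and these values are descriptions.

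The authors' deposited table of group comparisons, made with DESeq2, gave q-values under 0.05 for the same members as edgeR in 3 of its 4 comparisons. For C57BL/6 mutants against wild type the authors' deposited table listed Ihh at -1.67, Hhip at -0.97, Gli3 at 0.45 and Pth1r at 0.49 on the log2 scale. For BALB/c the authors' deposited table gave Gli3 as the only member under that threshold, at 0.34 with a q-value of 0.0194, and Ptch1 at 0.48 with a q-value of 0.0755.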

How the data were processed

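RNA was sequenced from 12 samples in 4 groups of 3, assigned from their labels. Per the labels' protocols, the tissue was treated with collagenase type II and trypsin and homogenised, and RNA was taken up in Trizol for mRNA libraries. The submitters' processing notes name bcl2fastq, TopHat2 2.0.6, HTSeq, DESeq2 and the build mm10, without their settings. The authors deposited raw gene counts, all of them even numbers, for 23358 genes, with RPKM values and a gene length headed coding length (RPKM not used). The cause of the even numbers was not tested, so a count given here need not equal a number of sequenced fragments. The authors also deposited 4 group comparisons (log2 fold changes with p-values and q-values), which are quoted and not recomputed. Of the value columns, 0 belonged to no sample.

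Counts were analysed with edgeR 4.0.16 in R 4.3.3: filterByExpr (minimum count 10, minimum total count 15; 16190 genes kept), TMM scaling and 1 quasi-likelihood fit of all 12 samples with a mean per group. The 6 contrasts were tested two-sided with Benjamini-Hochberg adjustment over all genes kept, and called under 0.05. Standard errors follow from the F statistic, and 95% intervals use its degrees of freedom. CPM values are TMM-scaled, and log2 CPM used a prior count of 2. The test was tried on simulated counts first. Named genes are the 9 members, pathway genes called in a genotype contrast or the interaction, Shh, Dhh, Sufu, Pth and Gas1, Col2a1, Col10a1, Sox9, Fgfr2 and the 5 genes nearest to each of 4 members. Arhgap9, which overlaps Gli1, was named after its values were seen. A further named gene is not reported here. The members and lists were chosen with earlier results of these data known. Alternatives were DESeq2 1.42.0, limma-voom 3.58.1, RLE size factors, total counts, no filter, only the groups compared, a Y-linked covariate and each library left out. Leaving out 3 libraries that stand apart together (C57BL/6 wild type 1, C57BL/6 mutant 4 and BALB/c mutant 16), and running all alternatives for called pathway genes and for counts over the pathway and marker lists, were chosen after seeing the data. Promoter windows came from RefSeq (GRCm38.p6).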

Additional observations from a re-analysis of the deposited data

Results flagged for a closer look

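For 9 genes the genotype effect on BALB/c differed from that on C57BL/6 in edgeR's quasi-likelihood test of the difference with Benjamini-Hochberg adjustment over all genes. These were 2 of the 9 members, 6 of 51 tested pathway genes (11.8%) and the cartilage gene Sox9, against 10% of all tested genes, so the pathway share lay near that of all genes. Values are log2 differences, BALB/c effect minus C57BL/6 effect, over 3 samples in each group. Among the members these were Ihh at 1.64 (adjusted p = 0.0120), which was lower in 3 of 3 C57BL/6 mutant libraries and overlapped between the BALB/c genotypes, and Pth1r at -0.55 (adjusted p = 0.0132), which was higher in 3 of 3 C57BL/6 mutant libraries. Both passed in every fit that left out 1 library. Among pathway genes, Arrb1, an arrestin that binds activated receptors, was at 0.45 (adjusted p = 0.00812) and also passed in every such fit, at 0.69 with total counts.

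The other 6 did not pass in every fit. Disp1 was at -0.61 (adjusted p = 0.0350) and Evc2, a cilium protein that binds Smo, at -0.45 (adjusted p = 0.0314), and both were lost without C57BL/6 mutant 5 or 6, any BALB/c wild type library, or BALB/c mutant 16 or 18, at adjusted p up to 0.0870 and 0.0781. Ift88 at 0.59 (adjusted p = 0.0446) and Hdac5, a class II histone deacetylase, at -0.33 (adjusted p = 0.0405) passed in 2 of 12 such fits each, Mef2c at -0.52 (adjusted p = 0.0452) in 3 and the cartilage regulator Sox9 at 1.32 (adjusted p = 0.0379) in 4, with adjusted p up to 0.0968, 0.0956, 0.110 and 0.0867. With total counts Disp1 (-0.39, adjusted p = 0.0573), Evc2 (-0.22, adjusted p = 0.102), Hdac5 (-0.10, adjusted p = 0.527) and Mef2c (-0.29, adjusted p = 0.106) were lost. Ift88 was lost by limma-voom, without the filter on low counts and with the Y-linked covariate (adjusted p = 0.0551, 0.0570 and 0.0698). Hdac5 was also lost without the filter and without the 3 libraries that stand apart (adjusted p = 0.0536 and 0.0526), and Mef2c with the Y-linked covariate (adjusted p = 0.0742).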

How the results depend on the processing

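Of 1062 refits of the 54 member results (9 members in 6 contrasts), 972 kept their direction and side of the threshold, 38 lost a call, 21 gained one and 31 changed sign, of which 0 were called in either fit. No paired analysis was possible because the groups share no replicate numbers.

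The signs that changed were all of small effects. With total counts they were Smo on C57BL/6 (-0.045) and averaged (-0.050), Ihh (0.042), Gli1 (0.074) and Gli2 (0.054) between mutants of the strains, and Gli1 (0.21) and Gli3 (0.11) in the difference of genotype effects, where limma-voom also turned Gli1 (0.0030). Without the 3 libraries that stand apart they were Ihh (0.078) and Smo (-0.015) between mutants and Gli1 (0.043) in the difference. Over fits that left out 1 library, Gli2 ran from -0.035 to 0.10 and Pthlh from -0.0062 to 0.13 on BALB/c, and Gli1 from -0.12 to 0.088 between wild types. Between mutants Ihh ran from -0.19 to 0.15, Smo from -0.016 to 0.051, Gli1 from -0.098 to 0.082 and Hhip from -0.048 to 0.31. Gli1 ran from -0.13 to 0.12 in the difference and Gli2 from -0.070 to 0.0019 averaged.

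Counts of called genes moved by over 1.5 times as follows, and the cause was not tested. On C57BL/6 (3867) the groups compared alone gave 1458, with fewer samples in the fit, and left-out fits 1724 to 4833. On BALB/c (22) DESeq2 gave 323, limma-voom 44, total counts 4, the Y-linked covariate 4, the groups compared alone 71, the 3 libraries left out 144 and left-out fits 0 to 95. The difference of effects (1626) gave 2686 with DESeq2 and 624 to 3129 over left-out fits. The averaged effect (1294) gave 2190 with DESeq2, 824 with the Y-linked covariate, 2667 without the 3 libraries and 493 to 2621 over left-out fits.

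Total-count scaling shifted the median of all genes by -0.20 on C57BL/6, -0.11 and 0.12 between strains in wild type and mutants, and 0.23 in the difference. The share of called genes that were higher then went from 47.5% to 13.2% on C57BL/6, from 47.1% to 31.2% and from 48.8% to 67.8% between strains, from 54.4% to 90.5% in the difference and from 59.0% to 33.1% averaged. Under it 7 of the 9 members were called on C57BL/6, 2 higher and 5 lower, against 28.9% of all genes. The fewest counts per library were those of Ihh (98 to 628) and Pthlh (114 to 218). Whether depth set any call was not tested.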
